A study of Mus musculus with 18 samples.

Results

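Gipr, Smtnl2, Mboat2, Ankrd37, Rab38, Omg and Emid1 are 7 genes with very large differences between macrophages kept at oxygen 1 and at oxygen 20, and they are described here one by one across all conditions of the study. They were chosen by the size of the measured oxygen 1 against oxygen 20 difference, found on the array by matching each probe's accession to a mouse gene symbol, and make up 7 of the 32496 genes and unnamed transcripts on the array. The difference between the oxygen settings is therefore given as a description, with no test. The array holds 9 probes for them. The brightest probe stands for each gene, and the 2 further probes, 1 of Rab38 and 1 of Emid1, were not well above background on any array.

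Macrophages were grown from femoral marrow of male C57BL/6J mice, 8 weeks old, over 7 days with macrophage colony stimulating factor, the factor that turns marrow cells into macrophages. The cells came from PHD3-/- mice or from wild-type mice. Each genotype was measured at oxygen 1 with control feeding, at oxygen 20 with starved feeding, and at oxygen 20 with control feeding, the state called control below, with 3 samples in each of the 6 groups. The labels give the oxygen value without a unit, do not say whether the mice or the cells were starved, and do not describe how the PHD3 knockout was made.

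Cells sense low oxygen through the hypoxia-inducible factors (HIF). Prolyl hydroxylases, among them PHD3 (encoded by Egln3), mark the HIF alpha subunits for destruction when oxygen is present. When oxygen is scarce the alpha subunits persist and bind short DNA elements with the core letters ACGTG or GCGTG beside their target genes. In macrophages this programme turns on glycolysis, angiogenic factors and the cell's own PHD3.

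All values below are log2 signals relative to the 75th percentile of the same array, so that 0 is the signal at that percentile and a difference of 1 is a 2-fold difference. Levels of one gene can be compared across samples but not with the levels of another gene, because each probe has its own brightness. Differences come with the 95% interval of the limma fit, and group means with the SD of 3 samples. A gene is said to pass the threshold at a limma p-value under 0.05 after Benjamini-Hochberg adjustment over the 20812 genes tested. In bulk RNA such as this, fewer cells of a type and less RNA per cell cannot be told apart.

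The 20 arrays lay on 5 slides and no spot was saturated. All 10 macrophage markers measured, such as Csf1r and Adgre1, were well above background in every sample. Of the lists of other cell types, the summed signal of 10 stromal and smooth muscle genes was 0.727 to 0.889 in PHD3-/- starved and 0.857 to 1.01 in wild-type starved samples, against 2.61 to 3.54 in PHD3-/- and 2.57 to 4.22 in wild-type controls, in units of the array's 75th percentile. Myh11, Des and Lmod1 of this list were not well above background in any group. In each genotype, 7 of the 10 were well above background in every starved sample and 6 in every control. Egln3, the targeted gene, did not pass the threshold between genotypes in any condition. Its brighter probe averaged 2.85 ± 0.14 in PHD3-/- and 2.90 ± 0.09 in wild-type samples at oxygen 1, and -3.95 ± 0.23 in PHD3-/- and -3.46 ± 0.34 in wild-type controls (SD, n = 3), a control difference of -0.49 (-0.83 to -0.15, limma adjusted p = 1.00). The labels do not say whether the probe lies in the deleted stretch.

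Gipr encodes the receptor for the gut hormone GIP, a G-protein-coupled receptor best known from pancreatic beta cells and fat, which raises cyclic AMP. At oxygen 1 its signal was 2.07, 1.96 and 1.85 in the PHD3-/- samples and 1.93, 1.72 and 1.91 in the wild-type samples. In controls it was -6.03, -6.87 and -6.18 in PHD3-/- and -5.35, -6.04 and -6.19 in wild-type samples, and only 1 of 3 and 2 of 3 of these were well above background. The oxygen groups lay far apart, at a measured 319-fold in PHD3-/- cells (log2 difference 8.32) and 210-fold in wild-type cells (7.71). With controls partly below background, the size of this fold is uncertain.

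Smtnl2 encodes smoothelin-like 2, a protein with the calponin-homology domain found in many actin partners. Its signal was 0.97, 1.32 and 1.10 in PHD3-/- and 1.06, 1.15 and 0.97 in wild-type samples at oxygen 1. The controls read -6.58, -6.08 and -6.11 in PHD3-/- and -5.79, -6.75 and -6.59 in wild-type cells, with 2 of 3 and 1 of 3 well above background. The measured difference was 168-fold in PHD3-/- (log2 7.39) and 174-fold in wild-type cells (log2 7.44), again against controls partly below background.

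Mboat2 encodes a membrane-bound O-acyltransferase that puts fatty acyl chains back onto lysophospholipids. It read -3.25, -3.40 and -2.88 in PHD3-/- and -2.52, -2.98 and -2.53 in wild-type samples at oxygen 1. No control or starved sample of either genotype was well above background, and their readings lay between -8.75 and -8.02. Against the lowest signal well above background on each control array, the gene was at least 9.07-fold higher at oxygen 1 in PHD3-/- cells. In wild-type cells it was at least 13.8-fold higher. A reading can lie above that floor and still not be well above background, so bounds taken this way, here and below, are not strict. They hold for the scanner software's processed signal alone. With normexp background correction in its place, the log2 differences were 1.44 and 1.79, under these bounds. The log2 differences measured on the processed signal were 5.12 and 5.74.

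Ankrd37 encodes a small ankyrin-repeat protein and is a known HIF target. It was well above background in all 18 samples. At oxygen 1 it read 3.36, 3.56 and 3.76 in PHD3-/- and 3.42, 3.58 and 3.36 in wild-type samples. Controls read -2.30, -2.40 and -2.69 in PHD3-/- and -2.12, -1.99 and -2.19 in wild-type samples. The difference was 65.1-fold in PHD3-/- (log2 6.02) and 47.0-fold in wild-type cells (log2 5.56), and it is the best measured of the 4 genes that were higher, since both ends lay above background.

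Rab38 encodes a small GTPase that, with its close relative Rab32, carries cargo to melanosomes and other lysosome-related organelles, and it was lower at oxygen 1. It read -1.64, -1.45 and -2.08 in PHD3-/- and -1.51, -1.96 and -1.29 in wild-type samples at oxygen 1. In controls it read 1.33, 1.83 and 1.67 in PHD3-/- and 1.52, 1.27 and 1.94 in wild-type samples. All of these were well above background, and the level at oxygen 1 was 10.1-fold lower in PHD3-/- (log2 -3.33) and 8.94-fold lower in wild-type cells (log2 -3.16).

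Omg encodes oligodendrocyte myelin glycoprotein, a lipid-anchored surface protein that restrains neurite growth through the Nogo receptor. No sample at oxygen 1 was well above background, with readings of -6.27, -6.64 and -6.70 in PHD3-/- and -5.89, -7.45 and -6.64 in wild-type cells. All controls were above background, at -3.16, -3.78 and -3.15 in PHD3-/- and -3.52, -3.61 and -3.12 in wild-type cells. On the processed signal, Omg was at least 8.16-fold lower at oxygen 1 in PHD3-/- cells and at least 6.77-fold lower in wild-type cells. With normexp background correction its log2 differences were -1.1 and -1.05, smaller than these bounds. Of the 10 oligodendrocyte and neural markers, Olig1 and Olig2 were not well above background in any group. In every oxygen 1 sample, 5 of the 10 were well above background in PHD3-/- and 6 in wild-type cells. A missing value counted as not well above background, and 1 PHD3-/- sample at oxygen 1 lacked a value in this list. The myelin protein gene Mbp rose at oxygen 1 by 0.67 in each genotype (limma adjusted p = 0.000669 in PHD3-/- cells, where 1 sample had no value, and 0.000281 in wild-type cells).

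Emid1 encodes a secreted protein with an EMI domain and collagen-like repeats. At oxygen 1 it read -5.62, -5.88 and -6.45 in PHD3-/- and -5.53, -6.19 and -4.68 in wild-type samples, of which 2 of 3 and 1 of 3 were well above background. Controls read -2.84, -2.68 and -2.66 in PHD3-/- and -3.19, -3.06 and -2.24 in wild-type samples. The measured level at oxygen 1, partly below background, was 9.56-fold lower in PHD3-/- (log2 -3.26) and 6.22-fold lower in wild-type cells (log2 -2.64). The wild-type samples at oxygen 1 were the most scattered of its 6 groups, with an SD of 0.76.

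**Figure D1:**
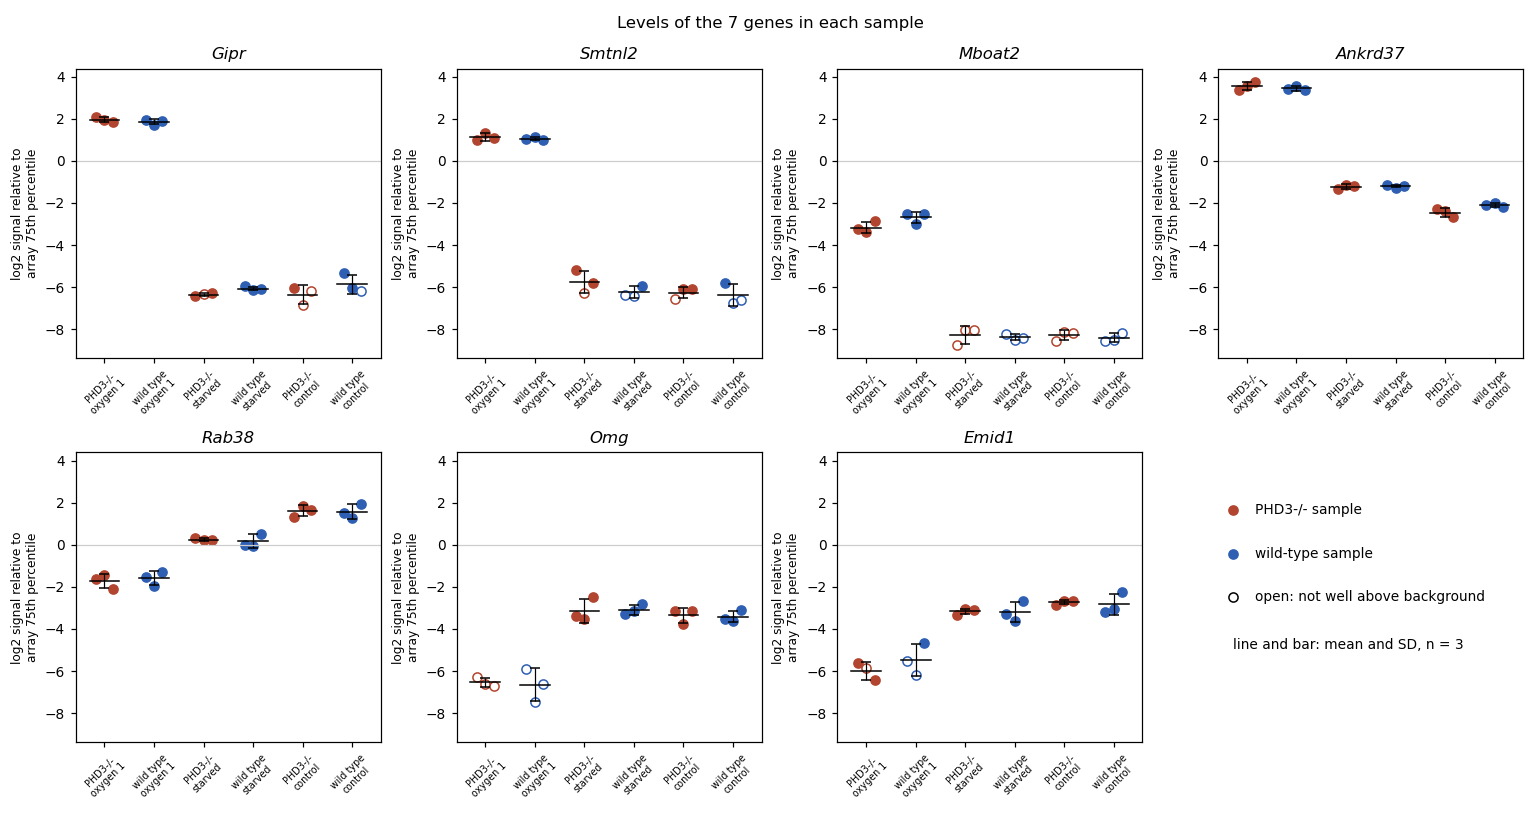
Signal of each of the 7 genes in every sample, as log2 relative to the array's 75th percentile, with PHD3-/- samples in red and wild-type samples in blue. Open circles were not well above background, and lines and bars give the mean and SD of 3 samples. Gipr, Smtnl2, Mboat2 and Ankrd37 are high in both oxygen 1 groups, Rab38, Omg and Emid1 are low there, and Ankrd37 and Rab38 alone have starved samples clear of the controls in both genotypes.

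In both genotypes the oxygen 1 samples and the controls did not overlap for any of the 7 genes. The choice of the genes fixes this, and over all genes tested the 2 groups did not overlap for 49% in PHD3-/- and 49.9% in wild-type cells. Of all genes, 17.6% were past the threshold and higher in both genotypes, and 15.3% were past it and lower in both. The size of the low-oxygen difference depended on how dim signals were treated. With normexp background correction (offset 50) in place of the scanner software's processed signal, it was 5.78 in PHD3-/- and 5.51 in wild-type cells for Gipr, 5.03 and 5.06 for Smtnl2, 1.44 and 1.79 for Mboat2, -1.10 and -1.05 for Omg, and -1.37 and -1.16 for Emid1, always PHD3-/- first. It was 5.71 and 5.39 for Ankrd37 and -3.16 and -2.89 for Rab38. Within the 3 slides that held oxygen 1 and control samples of PHD3-/- cells, the difference was 7.89 to 8.94 for Gipr, 5.41 to 6.13 for Ankrd37, -3.58 to -2.87 for Rab38 and -3.61 to -2.61 for Emid1. The 1 such slide for wild-type cells gave 7.07, 5.71, -3.48 and -3.01 for the same genes.

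Signal of other cell types also differed between the oxygen settings. The summed signal of 8 mast cell, basophil and eosinophil genes was 2.82 to 4.06 in PHD3-/- and 2.56 to 4.39 in wild-type samples at oxygen 1, against 0.690 to 0.793 and 0.733 to 0.761 in their controls. The genes behind this were Ccr3, higher by 3.01 in PHD3-/- and 2.91 in wild-type cells, and Siglecf, higher by 1.91 and 1.80. Of the 3 genes of this list that were tested, Kit fell in wild-type cells and did not pass in PHD3-/- cells. Cpa3, Mcpt8, Fcer1a, Epx and Prg2 were not well above background in any sample at oxygen 1. The sum of 10 lymphocyte genes was 5.36 to 6.54 in PHD3-/- and 5.33 to 6.18 in wild-type samples at oxygen 1, against 8.56 to 10.3 and 8.29 to 9.42 in controls. Cd3g, Cd8a, Cd79a and Ncr1 were not well above background in any group, while 3 of the 10 were so in every oxygen 1 sample of each genotype. Of 9 neutrophil markers tested, 1 rose and 4 fell in PHD3-/- cells and 1 rose and 5 fell in wild-type cells, among them Ltf, by 2.59 and by 2.60 (limma adjusted p = 0.00218 and 0.00226). Their summed signal was 21.8 to 31.8 in PHD3-/- and 25.0 to 34.9 in wild-type samples at oxygen 1, against 21.0 to 32.6 and 29.9 to 33.5 in controls. Of 7 oligodendrocyte and neural markers tested, 3 rose and 0 fell in each genotype, among them Tubb3, by 4.13 in PHD3-/- and 3.97 in wild-type cells. The part of such cells in the levels of the 7 genes was not tested.

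Low oxygen and starvation share the control samples, so the differences of each gene are set side by side and no relation between them was tested. Ankrd37 rose with starvation in both genotypes. Starved samples read -1.34, -1.16 and -1.18 in PHD3-/- and -1.16, -1.27 and -1.18 in wild-type cells, all above every control of their genotype. The starved cells were 1.24 higher in PHD3-/- (95% interval 0.98 to 1.5, limma adjusted p = 8.68e-06) and 0.90 higher in wild-type cells (0.64 to 1.16, adjusted p = 0.000155) on the log2 scale.

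Rab38 fell with starvation in both genotypes. Starved samples read 0.31, 0.21 and 0.21 in PHD3-/- and -0.01, -0.05 and 0.53 in wild-type cells, below every control and above every oxygen 1 sample of their genotype. The starved cells were lower by -1.37 in PHD3-/- (-1.85 to -0.88, limma adjusted p = 0.000843) and by -1.42 in wild-type cells (-1.90 to -0.94, adjusted p = 0.000634).

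Ankrd37 and Rab38 were the 2 of 7 genes past the threshold in each genotype, where 13.5% of all genes passed in PHD3-/- and 12.5% in wild-type cells. Of all genes, 7.14% rose and 6.38% fell in PHD3-/- cells, and 6.49% rose and 6.02% fell in wild-type cells. Both calls held with the slide as a block, and on the 3 slides that held starved and control samples of one genotype the Ankrd37 difference was 1.04 to 1.51 in PHD3-/- and 0.73 to 1.01 in wild-type cells. That of Rab38 was -1.62 to -1 in PHD3-/- and -1.53 to -1.32 in wild-type cells. The stromal sum given above was lower in the same starved samples, as was the summed signal of 10 neutrophil markers, at 13.8 to 20.5 in PHD3-/- and 19.3 to 26.3 in wild-type starved samples against 21.0 to 32.6 and 29.9 to 33.5 in their controls. Of the 10 neutrophil markers, 7 were well above background in every starved sample of each genotype. Ngp and Retnlg were not well above background in any starved sample, and Retnlg was not in any group. The part of stromal cells and neutrophils in the 2 results was not tested.

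The other 5 genes did not pass with starvation. Gipr read -6.43, -6.34 and -6.30 in PHD3-/- and -5.97, -6.15 and -6.08 in wild-type starved samples, within the range of all 6 controls. It differed by 0.00 in PHD3-/- (-0.45 to 0.45) and by -0.21 in wild-type cells (-0.66 to 0.24), and Smtnl2 by 0.50 (-0.08 to 1.08) and 0.14 (-0.44 to 0.71). Of 3 starved and 3 control samples, Gipr was well above background in 2 and 1 in PHD3-/- and in 3 and 2 in wild-type cells. Smtnl2 was so in 2 and 2, and in 1 and 1. Over the alternative settings named at the end, Gipr ran from -0.25 to 0.17 in PHD3-/- and from -0.37 to 0.56 in wild-type cells. Smtnl2 ran from 0.12 to 0.75 and from -0.05 to 0.73, so both differences are uncertain. Omg read -3.40, -3.51 and -2.48 in PHD3-/- and -3.30, -3.13 and -2.83 in wild-type starved samples, which overlapped their controls. It differed by 0.24 in PHD3-/- and 0.33 in wild-type cells, and all its starved samples were well above background. Emid1 differed by -0.44 and -0.35, with adjusted p of 0.504 and 0.634, although its PHD3-/- starved samples (-3.33, -3.07 and -3.10) lay below all PHD3-/- controls. With Emid1, 3 of 7 genes did not overlap between starved and control samples in PHD3-/- cells and 2 of 7 in wild-type cells, where 30.7% and 29.7% of all genes did not overlap. Mboat2 was not well above background in any starved or control sample, so its fitted differences of 0.02 in PHD3-/- and 0.03 in wild-type cells are between readings below background and say nothing of its level.

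**Figure D2:**
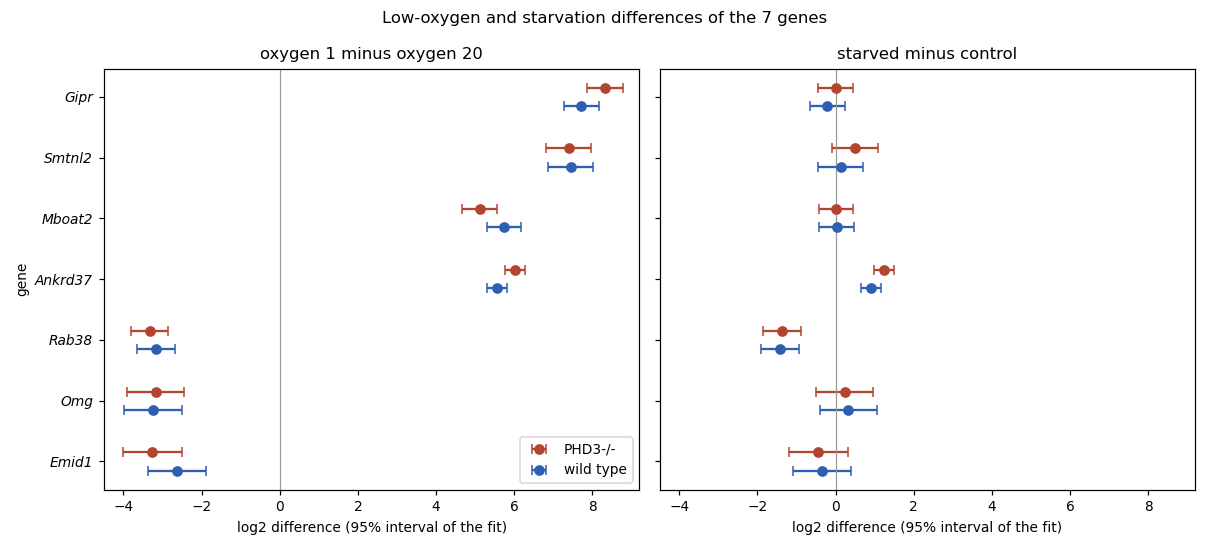
Log2 difference of each of the 7 genes at oxygen 1 against oxygen 20 (left) and starved against control (right), in PHD3-/- cells (red) and wild-type cells (blue), with the 95% interval of the fit. On the right the intervals of Ankrd37 lie above 0 and those of Rab38 below 0 in both genotypes, and the intervals of the other 5 genes include 0. Those of Mboat2 are between readings not well above background, and those of Gipr and Smtnl2 between readings partly so.

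The comparison of the genotypes asks whether loss of PHD3 altered the 7 genes. None of them passed the threshold in any condition, with limma adjusted p of 1.00 each, and 0% of all genes did under starvation, in controls or at oxygen 1, against 394, 290 and 352 genes at an unadjusted p under 0.05. The PHD3-/- minus wild-type differences of the 7 genes lay between -0.29 and 0.48 in starved samples, between -0.50 and 0.12 in controls and between -0.52 and 0.12 at oxygen 1. Mboat2 in starved and control samples, and Omg at oxygen 1, were not well above background in any sample of either genotype. Those comparisons are between readings below background and say nothing of an effect of PHD3 loss. Gipr and Smtnl2 in starved and control samples, and Emid1 at oxygen 1, were well above background in only some samples. The smallest unadjusted p belonged to Ankrd37 in controls, where PHD3-/- cells read lower by -0.36 (-0.62 to -0.11, unadjusted p = 0.00899 in the limma fit, adjusted p = 1.00) and the samples did not overlap. On the 2 slides with both genotypes in control state this difference was -0.50 and -0.24. Gipr in controls differed by -0.50 (-0.95 to -0.05, unadjusted p = 0.0317 in the limma fit) over all samples, against 0.01 and 0.02 within these slides. Mboat2 at oxygen 1 differed by -0.50 (-0.95 to -0.06, unadjusted p = 0.0294 in the limma fit), and by -0.53 to -0.35 within the 3 slides that held both genotypes.

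Samples of the genotypes did not overlap for 1 of 7 genes in controls, Ankrd37, where 5.02% of all genes did not, for 1 of 7 when starved, Gipr, where 5.21% did not, and for 0 of 7 at oxygen 1, where 4.4% did not. The widest of these intervals reached -1.26, for Emid1 at oxygen 1. The starvation response of Ankrd37 was larger in PHD3-/- than in wild-type cells by 0.34 (-0.02 to 0.70), which did not pass (limma adjusted p = 1.00). Of all genes 0 passed for this difference of responses, and 216 had an unadjusted p under 0.05.

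Promoter windows were found in the RefSeq table (GRCm38.p6) for 4 of the 7 genes, Smtnl2, Mboat2, Ankrd37 and Emid1, the last with 2 start sites. These windows were chosen because HIF sites often lie close to the start. Each runs from 250 bases before the start to 50 after it and was searched on both strands for ACGTG and for GCGTG, the letters at the core of HIF binding elements. The bases before the start are printed for the 3 genes that were higher at oxygen 1, with these letters, or their reverse complements CACGT and CACGC, in capitals. Coordinates are those of the 250 printed bases. The Ankrd37 window (printed part chr8:45999851-46000100, minus strand) holds ACGTG 2 times, at positions -241 to -237 and -6 to -2 counted from the start, and GCGTG on each strand in an overlapping stretch.
Ankrd37: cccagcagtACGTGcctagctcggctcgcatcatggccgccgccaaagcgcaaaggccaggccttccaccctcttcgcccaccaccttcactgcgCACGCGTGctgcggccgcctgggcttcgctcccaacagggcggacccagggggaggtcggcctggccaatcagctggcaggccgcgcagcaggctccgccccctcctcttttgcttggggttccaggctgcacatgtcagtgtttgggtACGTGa
Mboat2: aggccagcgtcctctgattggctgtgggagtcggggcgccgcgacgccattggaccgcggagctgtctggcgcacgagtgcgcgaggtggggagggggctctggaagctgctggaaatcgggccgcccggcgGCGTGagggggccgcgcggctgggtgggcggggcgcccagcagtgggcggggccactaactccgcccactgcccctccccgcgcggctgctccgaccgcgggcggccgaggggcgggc
Smtnl2: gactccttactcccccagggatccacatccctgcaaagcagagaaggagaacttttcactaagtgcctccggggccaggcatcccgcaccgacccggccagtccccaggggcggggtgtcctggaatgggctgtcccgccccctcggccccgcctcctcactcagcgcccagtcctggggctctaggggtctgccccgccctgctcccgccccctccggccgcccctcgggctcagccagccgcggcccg

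The Mboat2 window (printed part chr12:24831349-24831598, plus strand) holds GCGTG once and no ACGTG. The Smtnl2 window (printed part chr11:72411714-72411963, minus strand) and both Emid1 windows hold neither. Of 32851 promoter windows in the table, 19.6% hold ACGTG, 8.21% hold it at least 2 times and 43.8% hold ACGTG or GCGTG, so 1 match is common. A window without these letters says nothing of elements elsewhere.

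For each gene, the 3 genes with the most similar pattern were found by the root mean square (RMS) difference over the 18 samples, in log2, after centring each gene on its own mean, among 12867 named genes. Gipr and Smtnl2 both lay closest to Ppp1r3g, a glycogen-targeting subunit of a protein phosphatase, at RMS 0.37 and 0.55. Gipr lay 0.61 from Smtnl2. The median gene lay 3.83 from Gipr and 3.45 from Smtnl2. Ppp1r3g was not well above background in 12 of the 18 samples, so these distances rest in part on readings below background. The 18 samples include those whose oxygen difference chose the genes. A large distance from the median gene therefore follows from the choice and is no yardstick of likeness. For Gipr, Mgarp came between Ppp1r3g and Smtnl2, at 0.52. For Smtnl2, Arg1, the arginase of alternatively activated macrophages, came next after Ppp1r3g and Gipr, at 0.80. Arg1 was not well above background in 9 of the 18 samples. Mboat2 lay closest to Ppp1r3c, another glycogen-targeting subunit (0.37), then Rcor2, a co-repressor of REST (0.39), and Plod2, a collagen lysyl hydroxylase (0.46). Ppp1r3c, too, was not well above background in 12 of the 18 samples. Mboat2 itself was not in any starved or control sample, so all 3 distances rest in part on readings below background.

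Ankrd37 lay closest to Prr15 (0.35), to Ak4, a mitochondrial adenylate kinase (0.36), and to Egln3, the gene of PHD3 itself (0.38). All 3 rose with starvation in both genotypes, which the measure of likeness had used. Prr15 rose by 1.59 in PHD3-/- and 1.42 in wild-type cells (limma adjusted p = 0.000274 and 0.000724), Ak4 by 1.26 and 0.93, and Egln3 by 1.54 and 1.16. Of the genes near the 4 that were higher at oxygen 1, 7 others had a promoter window, and 7 of these held ACGTG in at least 1 window, where 19.6% of all windows in the table hold it. Ak4 has 4 windows and the others 1 each. These genes were picked by likeness, over the same samples, to genes chosen for their low-oxygen difference. Rcor2, Ak4 and Egln3 also stand in the list of HIF targets read below. The count is therefore a description and no test of these letters.

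Rab38 lay closest to Stab2, a scavenger receptor for hyaluronan (0.34). Next came Dscc1, a sister chromatid cohesion factor (0.35), and Tk1, the thymidine kinase of S phase (0.36). Rab38 was 1.37 from the median gene, a distance that its choice by oxygen difference also fixes in part. Stab2, Dscc1 and Tk1 all fell with starvation in both genotypes, which the measure of likeness had used. Stab2 differed by -0.89 in PHD3-/- and -0.77 in wild-type cells (limma adjusted p = 0.00524 and 0.0137). Dscc1 fell by 1.12 in PHD3-/- and by 1.14 in wild-type cells (limma adjusted p = 0.00095 and 0.000802), and Tk1 fell by 1.59 and by 1.41. Emid1 also lay closest to Stab2 (0.45), followed by Rab3il1 and Sucnr1, the succinate receptor (0.47 each). Omg lay closest to Psrc1, a spindle protein (0.44), the chemokine Cxcl5 (0.46) and Inka2 (0.52). Stab2 and Inka2 were each not well above background in 6 of the 18 samples, Cxcl5 in 4 and Sucnr1 in 2. At oxygen 1, Omg was well above background in no sample and Emid1 in only some. The distances of these genes rest in part on readings below background. Of the genes near the 3 that were lower at oxygen 1, 6 had a promoter window, and 1 of these held ACGTG, Rab3il1, which has 5 windows. This count, too, is a description of genes picked by likeness and no test.

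The families of the 7 genes were read at the same threshold, which 39.7% of all genes passed in PHD3-/- and 38.6% in wild-type cells at oxygen 1 against oxygen 20, with 21.4% and 20.5% higher. Of 6 other incretin and glucagon-family receptors tested, none changed in PHD3-/- cells and 1 rose in wild-type cells, Vipr2 by 0.58, named after its value was seen. The closest relatives of Gipr differed by 0.12 in PHD3-/- and 0.03 in wild-type cells for Glp1r, 0.00 and 0.07 for Glp2r and 0.15 and 0.13 for Gcgr, and none passed. Of 23 genes of Gs signalling and cyclic AMP, 5 rose and 5 fell in PHD3-/- cells and 4 rose and 6 fell in wild-type cells. Prkacb, a catalytic subunit of protein kinase A, fell by 1.19 in PHD3-/- and by 1.01 in wild-type cells (limma adjusted p = 2.56e-07 and 1.35e-06). Rapgef3, the cyclic AMP-gated exchange factor Epac1, fell by 1.57 and by 1.65 (adjusted p = 3.53e-05 and 2.38e-05). The hormone gene Gip itself was well above background in 1 of the 18 samples.

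Smtn, the founding smoothelin, fell by 0.69 in PHD3-/- and by 0.58 in wild-type cells (limma adjusted p = 0.000204 and 0.00103), while Smtnl1 was well above background in 1 sample and was not tested. Among 17 smoothelins and calponin-homology actin partners, 2 rose and 7 fell in PHD3-/- cells, and 2 rose and 8 fell in wild-type cells. Cnn2, a calponin that binds actin, fell by 1.40 in PHD3-/- and by 0.65 in wild-type cells. Micall1, an endosomal protein, rose by 0.68 and 0.73.

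Of 21 acyltransferases beside Mboat2, 5 rose and 3 fell in PHD3-/- cells, and 3 rose and 2 fell in wild-type cells. Gpat3, which starts glycerolipid synthesis, rose by 4.05 in PHD3-/- and 3.71 in wild-type cells at oxygen 1 (limma adjusted p = 1.43e-11 and 4.01e-11), and by 1.18 and 0.91 with starvation (adjusted p = 2.95e-05 and 0.000262). Mboat1, the closest relative, differed by 0.09 in PHD3-/- and -0.16 in wild-type cells and did not pass. Lpcat3 fell in PHD3-/- cells by 0.57 (adjusted p = 0.00226) and read -0.29 in wild-type cells, where it did not pass. The difference between the genotypes in this response was not tested.

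Ankrd37 was read beside 2 lists. Of 20 small ankyrin-repeat proteins, 4 rose and 5 fell in PHD3-/- cells, and 4 rose and 7 fell in wild-type cells. Asb11, a substrate receptor of ubiquitin ligases, was at least 3.05-fold higher at oxygen 1 in PHD3-/- and at least 3.78-fold higher in wild-type cells, being below background in all controls, and Asb4 rose by 2.02 and 2.0. Of 34 HIF targets, 31 rose in each genotype, with a median difference of 3.15 in PHD3-/- and 3.00 in wild-type cells against 0.03 for all genes. Car9, a carbonic anhydrase, fell in both genotypes by 1.05 and by 1.03 (limma adjusted p = 1.64e-05 and 2.31e-05), and Pfkfb4 fell by 0.55 in PHD3-/- cells, both named after their values were seen.

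With starvation, 11 of the 34 HIF targets rose and 0 fell in PHD3-/- cells, and 8 rose and 2 fell in wild-type cells, where 7.14% and 6.49% of all genes rose. Their median difference was 0.22 in PHD3-/- and 0.16 in wild-type cells. Ankrd37, at 1.24 and 0.90, lay beside Egln3 and Ak4 in this list. Hilpda, a lipid droplet protein, rose by 1.18 in PHD3-/- and 0.82 in wild-type cells. Rcor2 was higher at oxygen 1 but fell with starvation in wild-type cells by 0.65 (limma adjusted p = 0.000561). In PHD3-/- cells it differed by -0.24 (adjusted p = 0.151), and no gene passed for the difference of responses between the genotypes.

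Rab32, the close relative of Rab38, fell at oxygen 1 by 0.61 in PHD3-/- and by 0.64 in wild-type cells (limma adjusted p = 0.00102 and 0.000758). With starvation it differed by -0.27 in PHD3-/- and -0.22 in wild-type cells and did not pass. Of 33 genes of this pathway and of lysosome-related organelles, 7 rose and 9 fell in PHD3-/- cells, and 6 rose and 9 fell in wild-type cells. Vps33a, a vesicle tethering subunit, fell by 0.82 and by 0.78, and Myo7a, a motor protein of pigment cells and hair cells, by 0.96 and by 0.75. Ap3s1, a subunit of an adaptor complex, rose by 0.70 and 0.50.

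Of 12 genes of the myelin inhibitors and their receptors, 5 rose and 2 fell in PHD3-/- cells, and 4 rose and 1 fell in wild-type cells. Rtn4r, the Nogo receptor that binds Omg, rose by 1.16 in PHD3-/- and 1.05 in wild-type cells (limma adjusted p = 0.00462 and 0.0092), while Mag, another ligand of this receptor, fell by 0.70 and by 0.68. Of 10 EMI-domain genes related to Emid1, 3 rose and 1 fell in each genotype. The 1 that fell was Stab2, which was below background in all samples at oxygen 1 and at least 5.38-fold lower there in PHD3-/- and at least 3.85-fold lower in wild-type cells. Egfl7, a vascular matrix protein, rose by 1.81 and 1.63. Col26a1, the closest relative of Emid1, was well above background in 2 samples and was not tested.

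**Figure D3:**
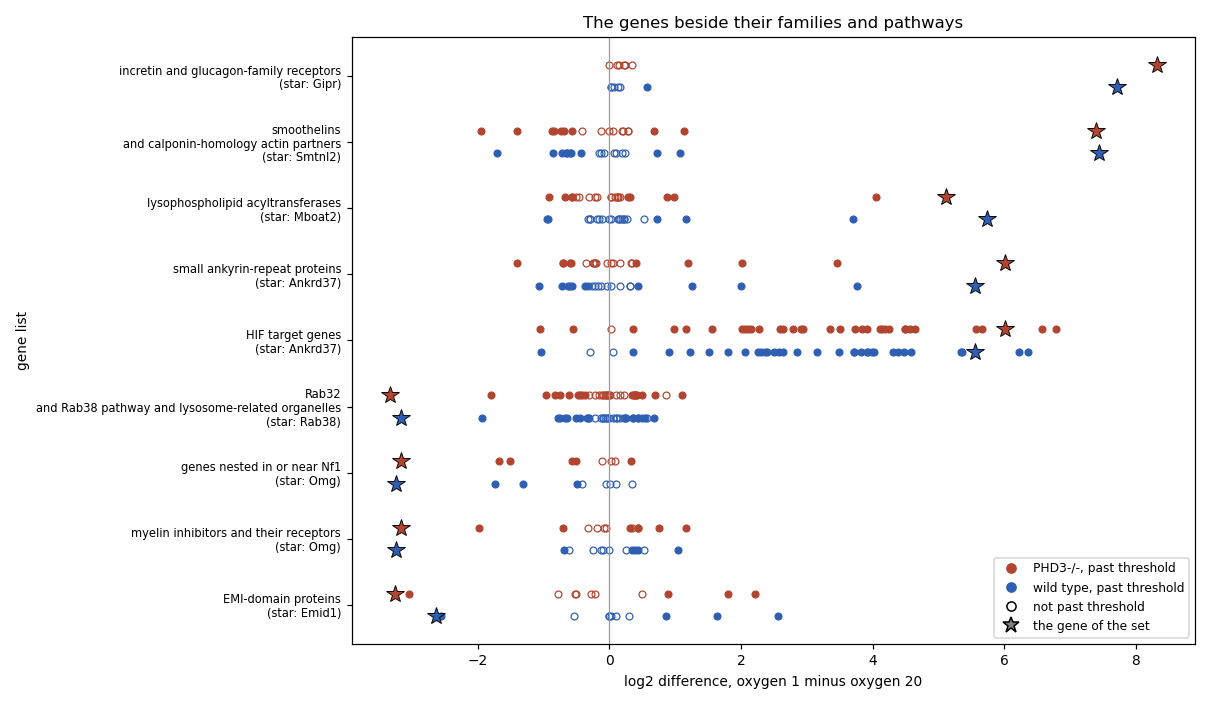
Log2 difference at oxygen 1 against oxygen 20 of the genes in each family or pathway list (circles, filled where past the threshold) and of the gene the list belongs to (star), in PHD3-/- cells (red) and wild-type cells (blue). The stars of Gipr, Smtnl2, Rab38 and Omg lie beyond all circles of their lists. The star of Mboat2 is drawn at a difference from controls that were not well above background, for which the text gives bounds on the processed signal. Ankrd37 lies beyond the ankyrin-repeat proteins but inside the range of the HIF targets, and Stab2 lies beside Emid1.

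The nearest measured genes on either side were read in the same fit. Mboat2 lies next to Rrm2, a subunit of ribonucleotide reductase, which fell by 2.10 in PHD3-/- and by 2.50 in wild-type cells at oxygen 1 (limma adjusted p = 2.11e-05 and 4.21e-06), against the higher Mboat2. On its other side Kidins220 differed by -0.18 and -0.24 and did not pass. Gipr lies between Snrpd2 and Eml2, which fell by 0.51 and by 0.41 in PHD3-/- and by 0.55 and by 0.49 in wild-type cells. Both neighbours of Smtnl2, Tekt1 and Ggt6, were well above background in 1 of 18 samples and were not tested.

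Beside Ankrd37, 1700029J07Rik was higher by 2.16 in PHD3-/- (SE 0.47, limma adjusted p = 0.00206) and by 1.80 in wild-type cells (SE 0.47, adjusted p = 0.00748), and was well above background in 6 of 18 samples. Lrp2bp, on the other side, did not pass, with an SE of 1.36. Beside Rab38, Tmem135 fell by 0.29 and by 0.35, and Ctsc, a lysosomal protease, differed by -0.10 in PHD3-/- and -0.33 in wild-type cells and did not pass.

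The RefSeq table places Omg inside the span of Nf1, the neurofibromin gene. Nf1 differed by 0.08 in PHD3-/- (-0.24 to 0.41) and -0.05 in wild-type cells (-0.38 to 0.27) and did not pass. Evi2, nearest on one side, differed by -0.08 in PHD3-/- and 0.01 in wild-type cells and did not pass. Wsb1, nearest on the other side, rose by 0.81 in PHD3-/- and 0.72 in wild-type cells (limma adjusted p = 0.00793 and 0.017), against the lower Omg. Of 8 genes in or near Nf1, 1 rose and 4 fell in PHD3-/- cells and 0 rose and 3 fell in wild-type cells, among them Atad5, a replication factor unloader, by 1.68 and by 1.73, and Adap2 by 1.51 and by 1.31. Emid1 lies between Rhbdd3, which rose by 0.62 in PHD3-/- and 0.71 in wild-type cells, and Kremen1, a Wnt co-receptor, which differed by 0.18 and 0.13 at oxygen 1 and did not pass.

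**Figure D4:**
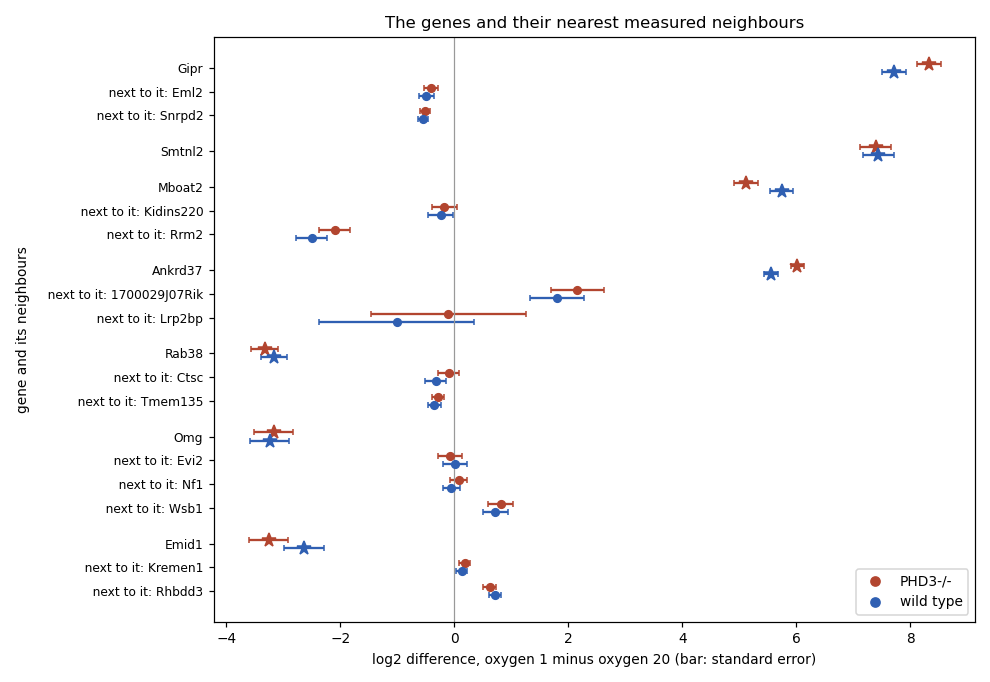
Log2 difference at oxygen 1 against oxygen 20 of each gene (star) and of its nearest tested neighbours (circles), in PHD3-/- cells (red) and wild-type cells (blue), with the standard error of the fit. The neighbours of Gipr, Rab38, Omg and Emid1 lie between -0.55 (Snrpd2) and 0.81 (Wsb1), Rrm2 lies opposite to Mboat2, and 1700029J07Rik lies on the same side as Ankrd37. Smtnl2 had no neighbour that was tested.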

How the data were processed

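Spot intensity in 1 colour was processed by Agilent Feature Extraction 10.7.3.1, with background subtracted and no normalization between arrays, per the file headers, on a design built on mm9. The authors' deposited value table holds log2 values and served as an alternative. The submitters' processing notes name limma.

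Here log2 processed intensity was set relative to each array's 75th percentile. Spots the software marked as outliers were left out, and the 2 samples with 2 arrays each were averaged. Probes well above background in at least 3 of 18 samples, with 2 values in every group, were tested, with the brightest probe for each gene (20812 genes, 14007 with a symbol). Accessions were named through RefSeq. A limma 3.58.1 model (R 4.3.3) had 6 group means, 12 residual degrees of freedom, two-sided moderated tests and Benjamini-Hochberg adjustment at 0.05 over all genes. The script was tested on simulated data with known changes. Missing values made up 0.116%.

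The 7 genes, the gene lists and the rules were chosen with earlier results of these data known. Genes named beside the 7 were their closest relatives, up to 4 genes a list past the threshold in both genotypes with the smallest wild-type p, nearest neighbours, and the 3 most similar patterns. The design text names 3 mice in each group, and whether a mouse gave several samples is not given, so p-values treat samples as independent. The number of arrays limits the precision. Alternatives were other normalizations, background correction, filters, blocks and left-out samples. Deviations of same-numbered samples correlated at -0.329 to 0.287 over 21 pairs, 7 of them over 0.1. Same-numbered starved and control samples of a genotype lay on a shared slide, and a slide block was among the alternatives.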

Additional observations from a re-analysis of the deposited data

How the results depend on the processing

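The starvation results of Ankrd37 and Rab38 kept their direction and their side of the threshold in each of the 16 alternatives run for each. Limma adjusted p ranged from 2.36e-06 to 0.000224 in PHD3-/- and from 6.15e-05 to 0.00224 in wild-type cells for Ankrd37, and from 0.000343 to 0.00605 and from 0.000258 to 0.00484 for Rab38. With a probe required to be well above background in all samples, no other of the 7 genes could be tested. Genes past the threshold numbered, with normexp background correction, 912 for starvation in PHD3-/- cells (against 2812), 1118 in wild-type cells (against 2602), 4206 for low oxygen in PHD3-/- cells (against 8268) and 3920 in wild-type cells (against 8040). Its share of higher calls for starvation in wild-type cells was 701 of 1118, against 1350 of 2602, and it moved the median of all genes there to 0.184. With a replicate block, 1 gene (Lyz2) differed between PHD3-/- and wild-type cells when starved and 1 (Lyz2) at oxygen 1. Same-numbered samples correlated at -0.329 to 0.287 over 21 pairs, so the numbers were not taken to pair them. Leaving out 1 sample in turn, 0 to 2 genes differed between genotypes when starved and 0 to 1 at oxygen 1, none of them one of the 7 (Tmem45a without PHD3-/- starved replicate 2, 1700109H08Rik and an unnamed transcript without PHD3-/- starved replicate 3, Epo without PHD3-/- oxygen 1 replicate 3, Sfrp4 without wild-type oxygen 1 replicate 3), and 1695 to 2565 changed with starvation in wild-type cells, the lowest count without starved wild-type replicate 1. The cause was not tested. The low-oxygen differences of 6 of the 7 genes moved by more than the gene's own pooled SD between replicates under normexp and under no other alternative, with no change of sign, and that of Rab38 moved by less than its SD. Signals near background limit Gipr, Smtnl2, Mboat2, Omg and Emid1.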
